A study of Rattus norvegicus with 8 samples.

Results

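The genes described here build and supply cilia, and were chosen by name, not by level. They comprise axonemal dynein genes (Dnah, Dnai), tektins (Tekt), radial spoke genes (Rsph), central apparatus genes (Spag6, Spag16, Spag17, Hydin) and the regulator Foxj1, together called the motile class, and the intraflagellar transport (Ift) and Bardet-Biedl syndrome (Bbs) genes, called the transport class. The rule found 33 of the 16514 gene symbols listed for either tissue, 16 motile and 17 transport. Of these, 31 were listed for both tissues, while Rsph6a and Rsph10b were listed for hippocampus only. No Spag17, Hydin or Dnah gene other than Dnah1 was found by the rule for either tissue. RNA was sequenced from the hypothalamus and the hippocampus of male Sprague Dawley rats, an outbred strain, with 4 libraries per tissue. All 8 libraries came from animals that were 2 months old at the start and received 15% fructose in the drinking water with an omega-3 diet (fructose and DHA in the labels) for 6 weeks. No library without fructose or without DHA was compared, so the contrast is hypothalamus against hippocampus within 1 diet. Nothing in the labels tells if libraries are separate animals, so the spread given is that between libraries and may be technical.

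Motile cilia beat, and in the brain they are carried by the ependymal cells that line the ventricles. Their shaft, the axoneme, holds dynein arms that generate force, radial spokes and a central apparatus that regulate it, and tektin filaments along the microtubule doublets. Foxj1 is the forkhead transcription factor that switches on the motile cilium programme. Intraflagellar transport trains carry cargo along the shaft of motile cilia and also of the immotile primary cilia that most neurons and astrocytes bear, and the BBSome is a protein coat that moves membrane proteins in and out of cilia.

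Values are FPKM, fragments per transcript length and sequencing yield, scaled so that the typical gene has the same level in every library. Differences are hypothalamus minus hippocampus in mean log2(FPKM + 1), which understates the change of low genes. Genes averaging 1 FPKM or more across all 8 libraries were compared. To be called, a gene needed a difference of 1 or more in size in either direction, with no library of one tissue within the range of the other tissue. The tissues were listed in separate tables, which appear to have been normalised apart. Every level below is therefore set across tables, no test was made across them and no p-value is given. Read depth was unknown; the sum of all deposited FPKM was 435750 to 467110 per hypothalamus library and 350632 to 418768 per hippocampus library. Of 10554 genes compared, 13.3% were called higher in hypothalamus and 13.4% lower, and libraries of the tissues did not overlap for 53.4%. With FPKM as deposited, 65.3% of all calls were higher, against 49.8% after scaling, and the median gene lay at 0.18, against -0.04 after scaling.

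Most structural genes of the motile axoneme were at higher levels in hypothalamus, while Foxj1 was lower there. Of the 13 structural genes listed for both tissues, 10 passed the filter on low values. Of these, 6 were called higher, none was called lower and 4 were neither, against 13.3% of all genes called higher and 13.4% called lower. The summed level of all 13 was 82.4 ± 9.24 FPKM in hypothalamus and 34.6 ± 11.5 FPKM in hippocampus (SD, n = 4 each), a ratio of 2.38. The 4 hypothalamus sums lay between 74.4 and 95.3 FPKM, all above the 4 hippocampus sums of 24.5 to 46.2 FPKM. With quantile normalisation 4 of the 10 were called higher. The median difference of the 10 genes was 1.08, against -0.04 for all genes compared, and it was 0.85 over all 13. One of the 10, Dnah1, passed the filter through its hypothalamus level alone, so counts over the genes that passed are a description. In bulk tissue, more ciliated cells and more RNA per ciliated cell cannot be told apart.

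**Figure D1:**
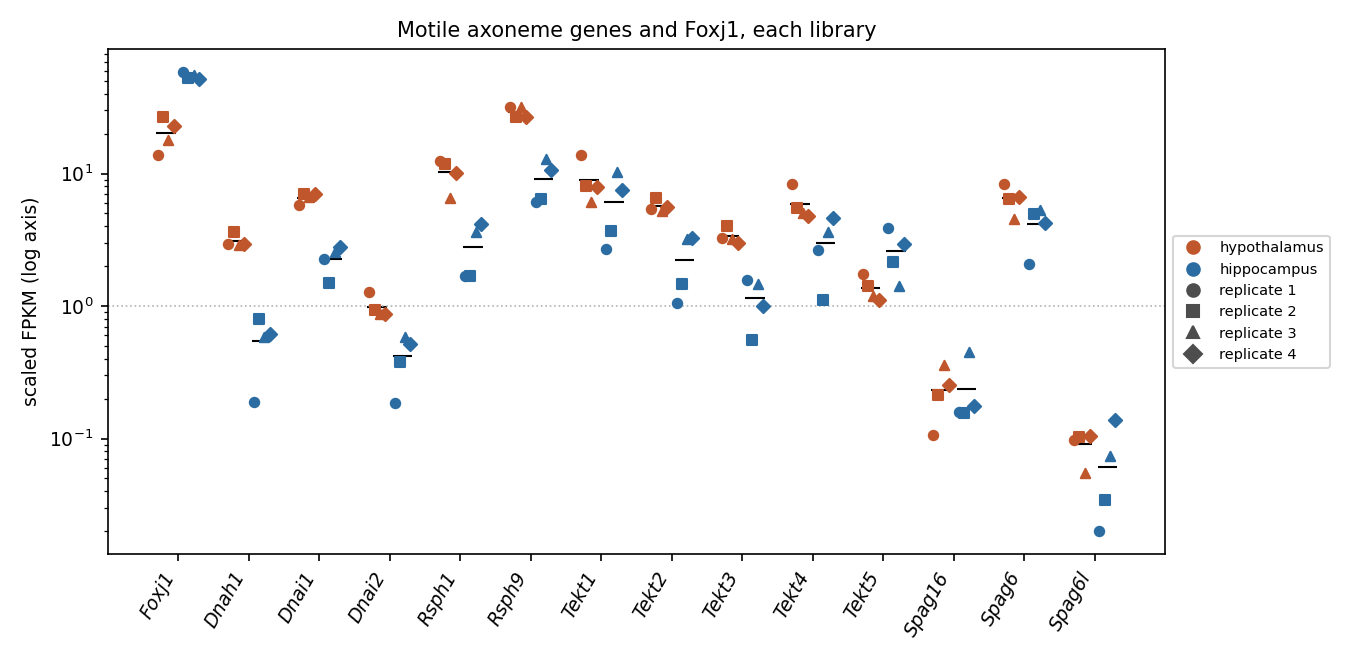
Scaled FPKM (log axis) of Foxj1 and the 13 axoneme structural genes in each library, hypothalamus in orange left of hippocampus in blue. Marker shapes give the replicate, black lines the mean of 4 libraries, the dotted line 1 FPKM, and a value listed at 0 (Spag6l, hippocampus replicate 1) is drawn at 0.02. For Foxj1 every hypothalamus library is below every hippocampus library, while for Dnah1, Dnai1, Dnai2, Rsph1, Rsph9, Tekt2, Tekt3 and Tekt4 every hypothalamus library is above.

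Rsph9, a protein of the spoke head, was at 31.8, 26.9, 31.7 and 26.9 FPKM in hypothalamus replicates 1 to 4, against 6.08, 6.39, 13 and 10.7 FPKM in hippocampus replicates 1 to 4. The hypothalamus libraries were close together and all well above the hippocampus libraries, among which replicates 3 and 4 were the high ones. The difference was 1.65 ± 0.25 (SE), a ratio of means of 3.24. Rsph1, another spoke head protein, was at 12.5, 11.8, 6.53 and 10.2 FPKM in hypothalamus, against 1.69, 1.68, 3.64 and 4.2 FPKM in hippocampus. Replicate 3 was the lowest hypothalamus library for Rsph1 and still above hippocampus replicate 4, the highest there, and the difference was 1.59 ± 0.32. Rsph10b, listed for hippocampus only, was at 8.62, 9.14, 14.6 and 7.32 FPKM there, and Rsph6a, a spoke gene of sperm in mice, at 0.30 to 0.53 FPKM. An entry missing from the hypothalamus table was not read as missing expression.

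Dynein arm genes had the same direction. Dnah1, an inner arm heavy chain and the only Dnah gene found, was at 2.95, 3.61, 2.87 and 2.93 FPKM in hypothalamus, against 0.19, 0.80, 0.59 and 0.61 FPKM in hippocampus. All hippocampus libraries were under 1 FPKM, and the ratio of means of 5.65 was the highest among the 31 genes listed for both tissues. Its difference on the log2 scale was 1.42 ± 0.14. Dnai1, an intermediate chain of the outer arm, was at 5.79, 7.01, 6.61 and 6.99 FPKM in hypothalamus, against 2.26, 1.5, 2.56 and 2.80 FPKM in hippocampus, with no overlap and a difference of 1.23 ± 0.14. Dnai2, the partner intermediate chain, averaged 0.98 ± 0.19 FPKM in hypothalamus and 0.42 ± 0.18 FPKM in hippocampus, which was under the filter, although its libraries did not overlap either.

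Tektins were divided. Tekt2 was at 5.44, 6.52, 5.26 and 5.55 FPKM in hypothalamus, against 1.05, 1.46, 3.21 and 3.26 FPKM in hippocampus, a difference of 1.11 ± 0.28. It fell short of the limit without hippocampus replicate 1 (0.92), as did Tekt3 without hypothalamus replicate 2 (0.98) or without hippocampus replicate 2 (0.90). Tekt3 was at 3.25, 4.03, 3.20 and 3.01 FPKM in hypothalamus and 1.57, 0.55, 1.46 and 1.0 FPKM in hippocampus, a difference of 1.05 ± 0.18, the smallest among the called structural genes. Just under the limit came Tekt4, at 5.91 ± 1.62 FPKM in hypothalamus and 3.0 ± 1.48 FPKM in hippocampus, whose libraries did not overlap and whose difference of 0.85 became 1.04 without hippocampus replicate 4. Tekt1 overlapped between the tissues, at 13.8, 8.09, 6.12 and 7.95 FPKM in hypothalamus and 2.68, 3.71, 10.3 and 7.56 FPKM in hippocampus. Its hippocampus libraries were split, with replicates 3 and 4 within the hypothalamus range and replicates 1 and 2 below it. Tekt5 had the opposite sign, at 1.36 ± 0.28 FPKM in hypothalamus against 2.61 ± 1.07 FPKM in hippocampus (-0.57 ± 0.24), and overlapped. Its level was a sum over 2 loci in hypothalamus and came from 1 locus in hippocampus. The larger hypothalamus locus alone was at 0.99 to 1.49 FPKM.

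Of the central apparatus genes, Spag6 was at 6.50 ± 1.53 FPKM in hypothalamus and 4.14 ± 1.45 FPKM in hippocampus, with overlap and a difference of 0.58 ± 0.28. Spag16 was at 0.23 ± 0.10 FPKM in hypothalamus and 0.23 ± 0.14 FPKM in hippocampus, and Spag6l, a close copy of Spag6, was under 0.14 FPKM in every library. Reads of Spag6 and Spag6l may have been divided between them in counting, so both levels are uncertain.

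Foxj1, known to drive the structural genes, had the opposite direction. It was at 13.8, 26.7, 18.0 and 23.0 FPKM in hypothalamus, against 58.3, 53.1, 55.5 and 52.2 FPKM in hippocampus. The hippocampus libraries lay within a narrow band and all above the hypothalamus libraries, which varied more. The difference was -1.42 ± 0.20, or 2.69 times as much in hippocampus, and Foxj1 was called lower under all 21 alternative settings (-1.56 to -1.19). Within a library, where scaling cancels, Foxj1 stood at 0.14 to 0.32 of the summed structural genes in hypothalamus and at 1.2 to 2.38 of that sum in hippocampus. The sum of the whole motile class, Foxj1 included, was 103 ± 8.06 FPKM in hypothalamus and 89.4 ± 10.9 FPKM in hippocampus and overlapped.

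**Figure D2:**
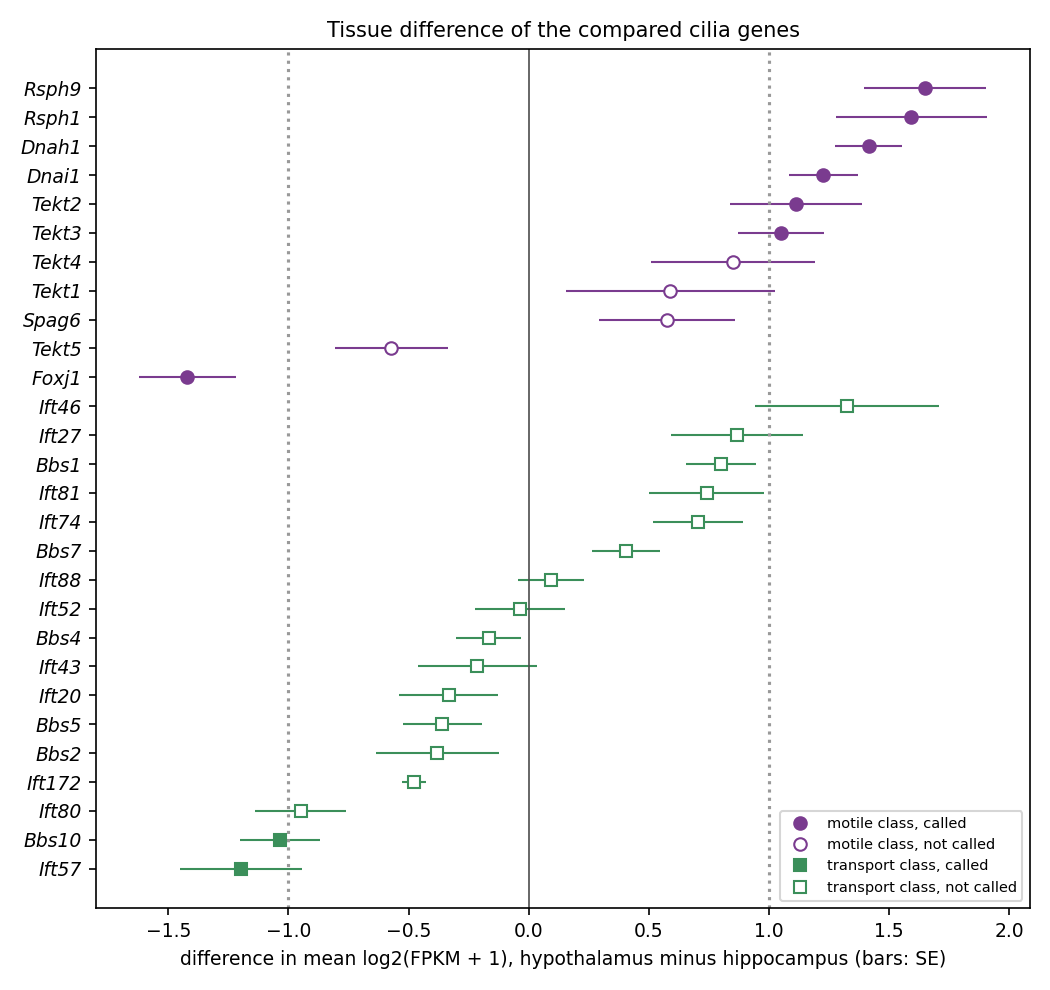
Difference in mean log2(FPKM + 1), hypothalamus minus hippocampus, of the 28 cilia genes compared, with SE bars; circles are the motile class, squares the transport class, and filled symbols were called. Dotted lines mark the limits of -1 and 1. There, 6 filled circles lie beyond 1 and Foxj1 beyond -1, while the transport genes spread on both sides of 0, from -1.2 for Ift57 to 1.32 for Ift46.

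Hippocampus replicates 3 and 4 stood apart from replicates 1 and 2 for many structural genes, and for markers of the choroid plexus. Both were above both replicates 1 and 2 for 6 of the 10 structural genes that passed the filter, an order seen for 16.5% of all genes compared. The structural sum was 24.5, 24.9, 46.2 and 42.8 FPKM in hippocampus replicates 1 to 4. The sum of 11 choroid plexus markers in the same libraries was 62.2, 84.3, 6979 and 5195 FPKM, of which Ttr, encoding transthyretin, gave 38.7, 37.5, 6638 and 4990 FPKM. In hypothalamus that sum was 38.1 to 121 FPKM, and Otx2 was at 0 in every library. None of 10 choroid plexus markers compared was called higher in hypothalamus, Tmem72 was called lower and 9 were neither. Their median difference was -1.61, and 13.3% of all genes compared were called higher and 13.4% lower. Foxj1 was level across these libraries, at 58.3 and 53.1 FPKM in hippocampus replicates 1 and 2 and 55.5 and 52.2 FPKM in replicates 3 and 4. Without hippocampus replicates 3 and 4, a setting added after seeing the data, the ratio of structural sums was 3.33 in place of 2.38. Then 8 of 10 structural genes were called higher, with Tekt1 (1.21) and Tekt4 (1.28) added, and Foxj1 differed by -1.45. Replicates 3 and 4 had the higher structural sums, so leaving them out could only raise the ratio. Fewer libraries also overlap less readily, and all genes called higher rose from 1402 to 1634. The part of choroid plexus tissue in the spread between hippocampus libraries was not tested.

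Markers of ependymal cells that are no members of the class were also examined. Of 7 such markers listed for both tissues, 2 (Ak7 and Enkur) also stand in the list of other motile cilium genes below. Of the 7, 4 were called higher in hypothalamus and 3 were neither, against 13.3% of all genes called higher and 13.4% lower. The sum of the 7 was 117 to 147 FPKM in hypothalamus and 54.1 to 121 FPKM in hippocampus, overlapping through hippocampus replicate 4. Ccdc153 and Tmem212, both found in multiciliated ependymal cells, were at 12.6 and 15.8 FPKM on average in hypothalamus and at 3.92 and 5.70 FPKM in hippocampus. Rarres2, encoding chemerin, was at 39.0 ± 13.2 FPKM in hypothalamus and 43.9 ± 24.2 FPKM in hippocampus. It gave 76.5 of the 121 FPKM in hippocampus replicate 4, the library through which the sums overlapped. The part of ependymal cell content in the structural difference was not tested. Of 7 compared tanycyte markers 4 were higher and 3 lower in hypothalamus, and of 8 astrocyte markers 3 were higher and 1 lower. These counts too stand against 13.3% of all genes called higher and 13.4% lower. Pineal markers summed to 1.49 to 2.49 FPKM in hypothalamus and 0.63 to 179 FPKM in hippocampus, the highest in replicate 4. The labelled tissues fit their defining genes, since Avp, Oxt, Pmch and Hcrt summed to 5445 FPKM or more in hypothalamus and to 8.29 FPKM or less in hippocampus, and Slc17a7, Neurod6, Itpka and Prox1 to 7.37 FPKM or less in hypothalamus and to 875 FPKM or more in hippocampus.

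**Figure D3:**
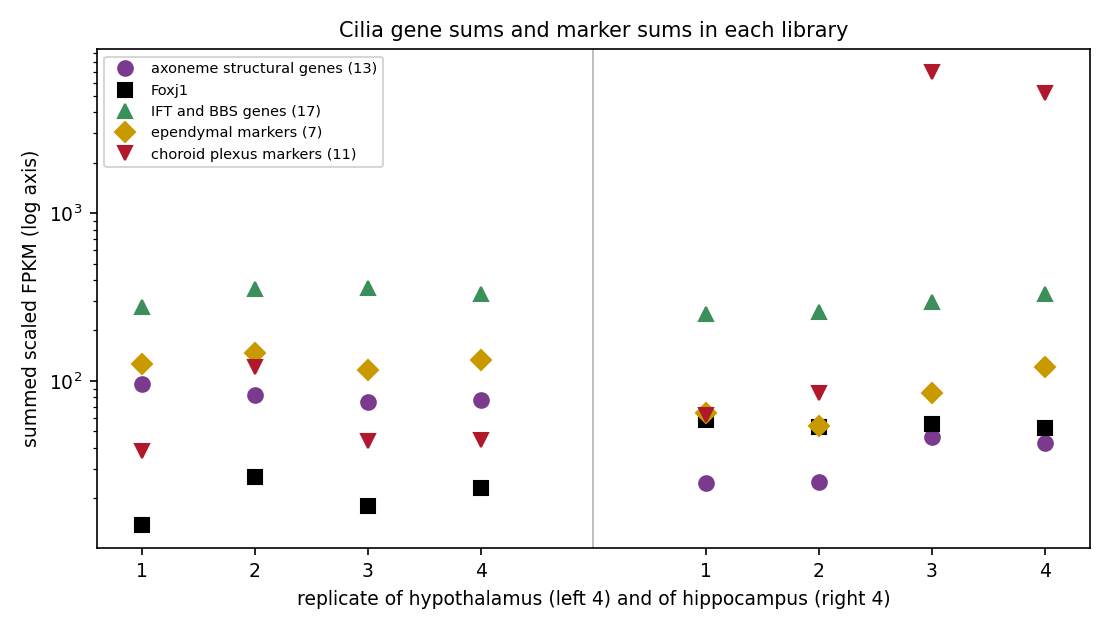
Summed scaled FPKM (log axis) of the 13 axoneme structural genes, Foxj1, the 17 IFT and BBS genes, 7 ependymal markers and 11 choroid plexus markers in each library, hypothalamus on the left and hippocampus on the right. Structural sums are at 74.4 to 95.3 in hypothalamus and 24.5 to 46.2 in hippocampus, and the choroid plexus sum is 6979 and 5195 in hippocampus replicates 3 and 4 and at most 121 elsewhere.

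Other genes of motile cilia came from a list of 38. Of 22 compared, 2 were called higher in hypothalamus, 1 was called lower and 19 were neither, with a median difference of 0.60, and 19 of the 22 differences were positive. Over all genes compared, 13.3% were called higher and 13.4% lower. Tppp3, a microtubule-binding protein of ciliated cells, averaged 190 FPKM in hypothalamus and 37.3 FPKM in hippocampus, and Dnali1, a dynein light intermediate chain, 4.67 FPKM in hypothalamus and 1.37 FPKM in hippocampus. Ccdc103, a dynein arm attachment factor and the second most abundant of the list, was at 38.7 ± 1.14 FPKM in hypothalamus and 68.7 ± 3.42 FPKM in hippocampus, apart but under the limit (-0.81). Rfx3, a transcription factor that binds the X-box of cilia gene promoters, was the one called lower, at 1.16 to 1.79 FPKM in hypothalamus against 6.81 to 20.5 FPKM in hippocampus. Its relative Rfx2 was not called, at 3.26 to 4.55 FPKM in hypothalamus against 1.44 to 2.55 FPKM in hippocampus. Rfx3 thus shared the sign of Foxj1, and Rfx2, described after its value was seen, that of most structural genes. A link of either gene to the members was not tested.

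Promoters are shown because structural and transport genes alike hold letters of the X-box, the element that RFX factors bind. RefSeq promoters (build GRCr8, 250 bases before to 50 after the start) matched 25 of the 33 symbols; Bbs10, Foxj1, Ift57, Ift74, Ift80, Rsph1, Spag16 and Tekt5 had none. The half-site GTTGCC, on either strand, was in 13 of the 25, in 6 of 12 motile and 7 of 13 transport genes, against 12.2% of 33469 promoters and 12.4% of those of protein-coding genes. The full X-box, a near-palindrome searched on both strands, was in 3 of 25, Dnai1, Dnai2 and Tekt2, against 1.60% of all promoters. The looser GTTNCC, which includes GTTGCC, was in 23 of 25 and in 46.0% of all promoters, and the forkhead motif GTAAACA was in 1 of 25, Tekt3, and in 3.78% of all. A match is a description of letters and no evidence of binding, and Dnah1, Dnai1, Rsph9 and Tekt3 were called higher with no GTTGCC in this window. Below are 80 bases lying before the start site, 5′ to 3′ along the gene, of the 3 genes with a full X-box and of 2 other motile and 2 transport genes with a half-site, with X-box or half-site in capitals (GGCAAC is the half-site read from the opposite strand).
Dnai1 (chr5:61525946-61526025, + strand): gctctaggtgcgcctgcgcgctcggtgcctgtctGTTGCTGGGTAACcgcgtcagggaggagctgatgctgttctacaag
Dnai2 (chr10:100258926-100259005, + strand): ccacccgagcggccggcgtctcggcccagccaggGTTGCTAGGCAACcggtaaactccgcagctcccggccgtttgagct
Tekt2 (chr5:143907725-143907804, - strand): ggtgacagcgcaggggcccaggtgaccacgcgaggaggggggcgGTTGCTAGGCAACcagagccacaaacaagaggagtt
Tekt1 (chr10:57479122-57479201, - strand): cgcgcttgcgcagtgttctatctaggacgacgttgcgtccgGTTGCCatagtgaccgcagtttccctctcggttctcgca
Spag6 (chr17:86261953-86262032, + strand): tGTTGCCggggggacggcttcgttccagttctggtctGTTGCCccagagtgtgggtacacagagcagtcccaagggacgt
Ift88 (chr15:35688907-35688986, + strand): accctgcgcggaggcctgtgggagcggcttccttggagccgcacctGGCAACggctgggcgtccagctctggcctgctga
Bbs5 (chr3:74818560-74818639, + strand): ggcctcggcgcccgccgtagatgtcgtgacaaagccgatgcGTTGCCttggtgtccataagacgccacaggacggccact

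In Dnai2 and Tekt2 the X-box is the same run of 13 bases, GTTGCTAGGCAAC, and in Dnai1 it is GTTGCTGGGTAAC. In Dnai2 and Tekt2 it overlaps a GTTGCC on the opposite strand. It lies at positions -62 to -50 from the start in Dnai2, -36 to -24 in Tekt2 and -99 to -87 in Dnai1. All 3 genes were at higher mean levels in hypothalamus, Dnai2 under the filter. Differences were positive for 9 of the 10 structural genes that passed the filter, so this direction is not particular to genes with an X-box.

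Transport genes differed in both directions. All 17 were listed for both tissues and passed the filter; none was called higher in hypothalamus, 2 were called lower and 15 were neither, against 13.3% of all genes called higher and 13.4% called lower. With FPKM as deposited the counts were reversed, with 2 called higher and none lower. Libraries did not overlap for 7 of the 17, with hypothalamus above in 3 and below in 4, against 53.4% of all genes. The median difference was -0.17 and turned to 0.06 with FPKM as deposited. Summed, the class stood at 329 ± 36.7 FPKM in hypothalamus and 283 ± 36.0 FPKM in hippocampus, with overlap. Ift46 alone averaged 110 FPKM in hypothalamus and 41.3 FPKM in hippocampus, a wider gap than that of the whole class. The higher hypothalamus sum therefore rests on this gene. Within a library, the structural sum was 0.21 to 0.34 of the transport sum in hypothalamus and 0.097 to 0.16 in hippocampus, again without overlap.

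**Figure D4:**
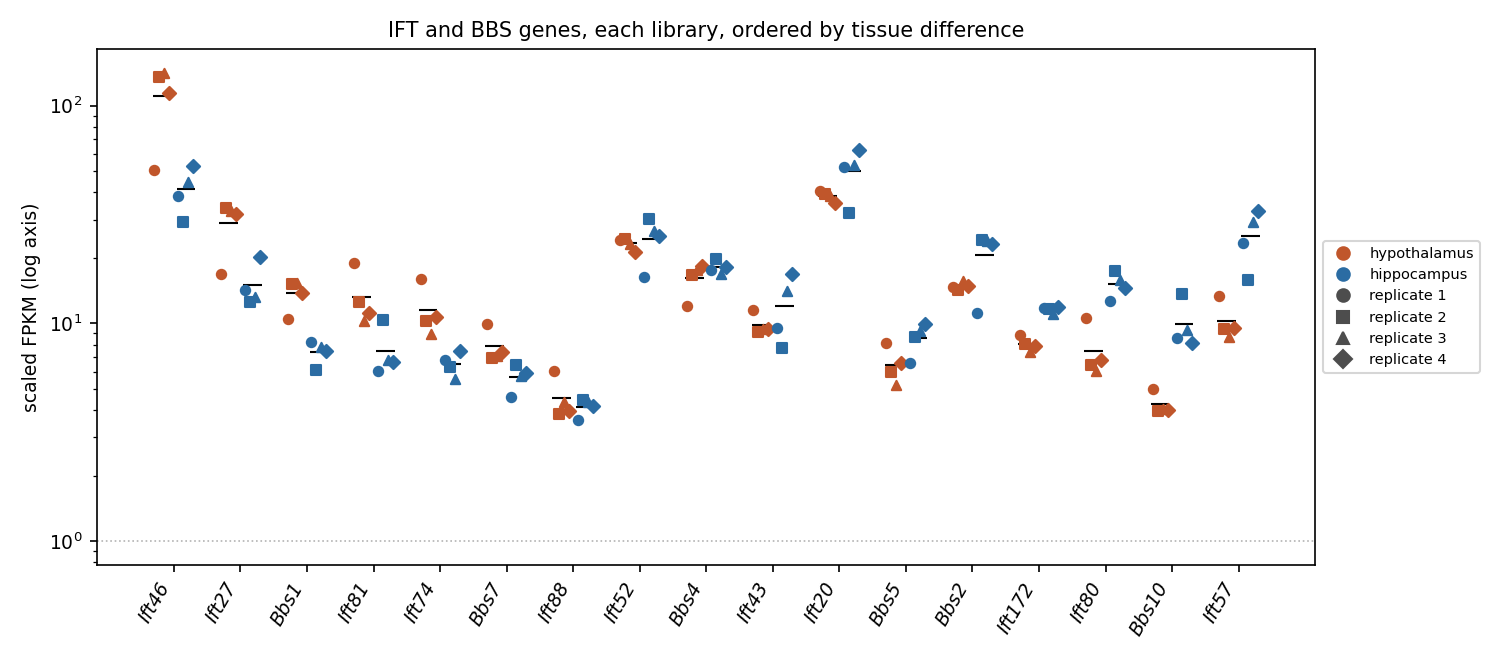
Scaled FPKM (log axis) of the 17 IFT and BBS genes in each library, hypothalamus in orange left of hippocampus in blue, ordered by tissue difference; marker shapes give the replicate and black lines the mean of 4 libraries. Ift46 is at the left end with hypothalamus replicate 1 at the level of hippocampus, and Ift57 at the right end with every hypothalamus library below every hippocampus library.

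Ift46, a core subunit of the IFT-B train, was the most abundant transport gene, at 50.7, 135, 142 and 115 FPKM in hypothalamus, against 38.6, 29.2, 44.6 and 52.9 FPKM in hippocampus. Hypothalamus replicate 1 lay at the level of hippocampus while the other 3 were far above it. Because replicate 1 overlapped with hippocampus replicate 4, Ift46 was not called, despite the largest positive difference of the class (1.32 ± 0.38). It was called higher without hypothalamus replicate 1 (1.66) and without hippocampus replicate 4 (1.45), and also with FPKM as deposited (1.56), upper-quartile scaling (1.44) and quantile normalisation (1.40). Ift27, the small GTPase of the train, behaved likewise, at 16.8, 33.7, 32.7 and 31.9 FPKM in hypothalamus and 14.2, 12.5, 13.2 and 20.2 FPKM in hippocampus. Its difference of 0.87 ± 0.27 became 1.10 without hypothalamus replicate 1 and 1.01 without hippocampus replicate 4, and it was then called.

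Other IFT-B genes went the opposite way. Ift57, a peripheral subunit of the train, was at 13.3, 9.40, 8.67 and 9.58 FPKM in hypothalamus, against 23.5, 15.9, 29.1 and 32.8 FPKM in hippocampus. The tissues did not overlap, the hippocampus libraries varied widely, and the difference of -1.2 ± 0.25 was called lower. Without hippocampus replicates 3 and 4 it was -0.87 and no longer called, and with FPKM as deposited it was -0.98. Ift80 was at 7.48 ± 2.12 FPKM in hypothalamus and 15.1 ± 2.06 FPKM in hippocampus, with no overlap and a difference of -0.95, just short of the limit, and was called lower without replicate 1 of hypothalamus (-1.11) or of hippocampus (-1.03). Ift172, the largest IFT-B subunit, was at 8.05 ± 0.59 FPKM in hypothalamus and 11.6 ± 0.34 FPKM in hippocampus, a small difference (-0.48 ± 0.05) with no overlap. Ift74 and Ift81, which together bind tubulin cargo, were both at higher mean levels in hypothalamus, at 11.5 ± 3.14 and 13.2 ± 3.90 FPKM against 6.53 ± 0.82 and 7.46 ± 1.97 FPKM in hippocampus. Only Ift74 was free of overlap, and neither was called.

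Libraries overlapped for the remaining IFT genes. Ift20, which also serves at the Golgi, was at 38.5 ± 1.98 FPKM in hypothalamus and 50.1 ± 12.8 FPKM in hippocampus. Ift52 was at 23.3 ± 1.40 FPKM in hypothalamus and 24.5 ± 5.85 FPKM in hippocampus. Ift88, the Polaris protein of the train, was at 4.55 ± 1.04 FPKM in hypothalamus and 4.15 ± 0.38 FPKM in hippocampus. Ift43, the only IFT-A subunit found under this name, was at 9.88 ± 1.12 FPKM in hypothalamus and 12.1 ± 4.22 FPKM in hippocampus.

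The 6 Bbs genes averaged 4.25 to 16.2 FPKM in hypothalamus and 5.66 to 20.6 FPKM in hippocampus. Bbs1, a BBSome subunit that binds the small GTPase Arl6, was at 10.5, 15.2, 15.4 and 13.8 FPKM in hypothalamus, against 8.26, 6.12, 7.80 and 7.51 FPKM in hippocampus. Its libraries did not overlap and its difference was 0.80 ± 0.14, under the limit. Bbs7 was at 7.85 ± 1.42 FPKM in hypothalamus and 5.66 ± 0.78 FPKM in hippocampus, also without overlap (0.40 ± 0.14). Bbs2, Bbs4 and Bbs5, all BBSome subunits, overlapped, at 14.9 ± 0.61, 16.2 ± 2.81 and 6.48 ± 1.22 FPKM in hypothalamus and 20.6 ± 6.29, 18.1 ± 1.24 and 8.59 ± 1.45 FPKM in hippocampus.

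Bbs10, a chaperonin-like protein that helps assemble the BBSome, was called lower, at 4.98, 3.97, 4.03 and 4.02 FPKM in hypothalamus, against 8.55, 13.7, 9.34 and 8.13 FPKM in hippocampus. The difference of -1.03 ± 0.17 depended on how loci were summed, since hippocampus had 3 loci of this symbol and hypothalamus 1. With the largest hippocampus locus alone, at 4.70 to 9.31 FPKM, it was -0.46 and the tissues overlapped. It was also short of the limit without hippocampus replicate 2 (-0.88), with FPKM as deposited (-0.83) and with upper-quartile scaling (-0.94).

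Train and BBSome genes that carry other names, from a list of 25, numbered 19 among those compared. Of these, hypothalamus was higher for 2 and lower for 1, and 16 had no call. Over all genes compared, 13.3% were called higher and 13.4% lower. The median difference of the 19 was 0.15. Mkks, a chaperonin-like protein related to Bbs10, averaged 54.1 FPKM in hypothalamus and 10.6 FPKM in hippocampus, the reverse of Bbs10. Rabl5, a GTPase of the IFT-B train, averaged 38.4 FPKM in hypothalamus and 14.5 FPKM in hippocampus. Kifap3, the adaptor of the kinesin that pulls the train outward, was at 56.6 FPKM in hypothalamus and 126 FPKM in hippocampus, while Kif3a, a motor subunit of that kinesin, was at 43.4 ± 7.20 FPKM in hypothalamus and 45.9 ± 10.2 FPKM in hippocampus. Among 19 compared genes of primary cilia and the transition zone, 5 were higher in hypothalamus, 14 had no call and none was lower. Here too the shares over all genes compared were 13.3% higher and 13.4% lower. The median difference of these genes was 0.19. Ahi1, encoding jouberin, averaged 87.7 FPKM in hypothalamus and 22.2 FPKM in hippocampus. B9d1, a transition zone gene, was listed at 0 in all 4 hippocampus libraries and at 0.39 to 4.25 FPKM in hypothalamus, and so passed the filter through hypothalamus alone. Tmem216, another transition zone gene, averaged 17.1 FPKM in hypothalamus and 5.81 FPKM in hippocampus.

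Between libraries of 1 tissue, the classes varied in different ways. In hypothalamus, replicate 1 lay outside the range of the other 3 by more than that range for 14 of 17 transport genes, against 49.3% of all genes compared and 4 of 10 structural genes. It was the highest for 11 transport genes, such as Ift74, Ift80, Ift81 and Bbs7, and the lowest for 4, among them Ift46, Ift27 and Bbs1. In hippocampus, the ratio of the highest to the lowest library, each with 1 FPKM added, had a median of 2.04 for the 9 structural genes with at least 1 FPKM there, 1.57 for transport genes and 1.5 for all genes compared. In hypothalamus these medians were 1.27 for the 10 structural genes, 1.46 for transport genes and 1.36 for all genes. By these medians the structural genes varied more than the transport genes in hippocampus and less in hypothalamus.

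**Figure D5:**
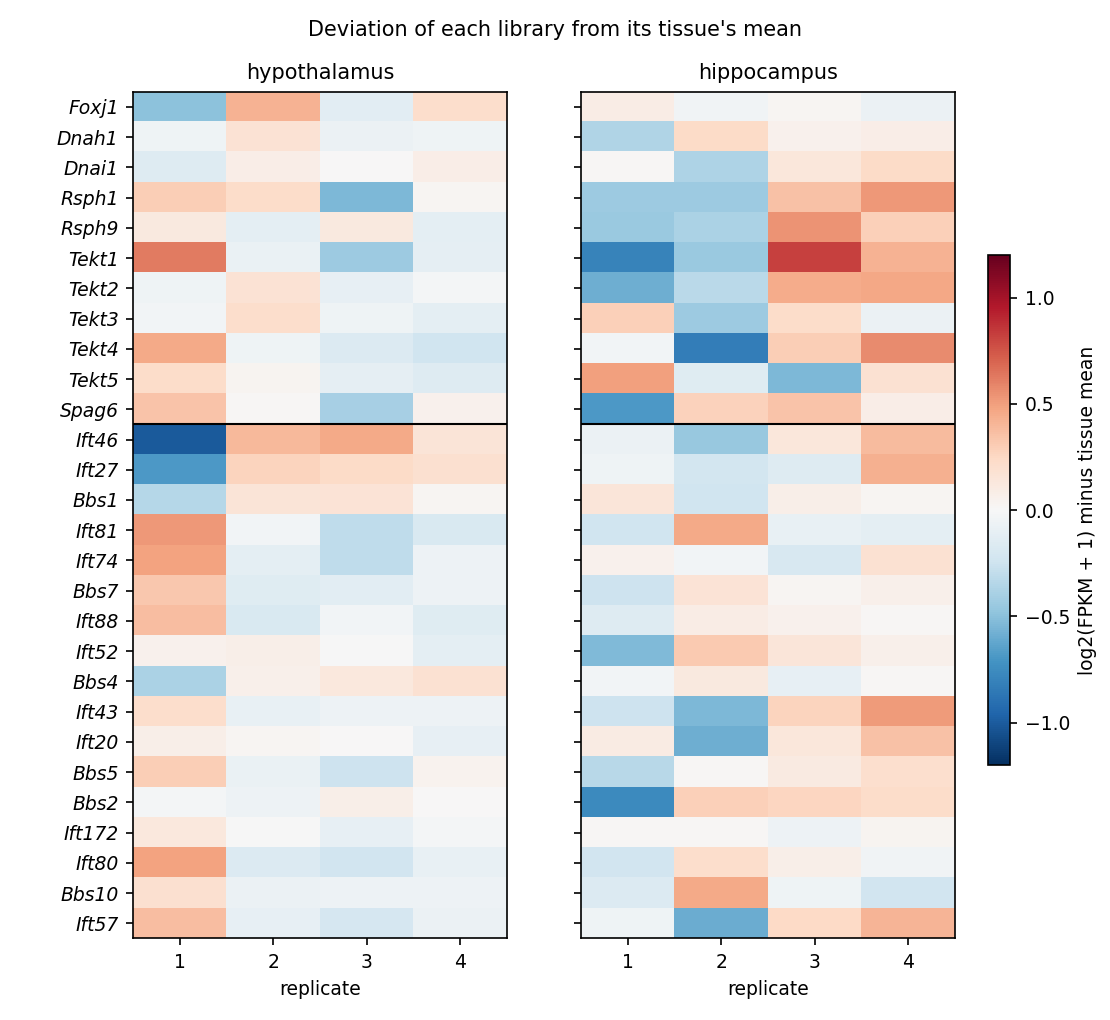
Deviation of each library from the mean of its tissue in log2(FPKM + 1) (colour scale, red above and blue below the mean) for the 11 motile genes above the black line and the 17 transport genes below it. In hypothalamus, replicate 1 departs from the other 3 for most transport genes, in both directions; in hippocampus, Rsph1, Rsph9, Tekt1 and Tekt2 are above the mean in replicates 3 and 4 and below it in replicates 1 and 2.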

How the data were processed

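Libraries were made from poly-A RNA and run on an Illumina HiSeq, per the labels. FPKM came as deposited by the authors, in 1 table for each tissue, with a status beside each value. Cuffdiff, Cufflinks, Bowtie, Bowtie2, TopHat, TopHat2 and the rat build rn5 are named in the submitters' processing notes. Their versions and options, the strand and the read depth were not given in the sources used here, so reads of overlapping or antisense genes cannot be told apart. Every member value had the status OK. Loci sharing a symbol were added up, and each library was rescaled by median of ratios (factors 0.892 to 1.12) on 15892 symbols common to both tables. Genes averaging 1 FPKM or more were compared on log2(FPKM + 1). The calling rule was tested on simulated data, with changes put only into genes at higher levels than most structural genes. That simulation therefore does not cover the levels at which most structural genes were called. Because the tables were made apart, no test was run across them. The rule for named genes took every called member, the 3 members with the highest mean level in each class (Foxj1, dynein arm, tektin, radial spoke, central pair, Ift, Bbs) and, of each other list, the 3 called genes with the largest difference and the 2 with the highest level. Members and list genes described beyond it, such as Rfx2, were added after their values were seen, and not every gene the rule takes from the other lists is reported here. Members, lists and settings were chosen with earlier results of these data known; the promoter motifs were chosen after the expression values were seen. There were 21 alternatives, of which 2 were added after seeing the data. Calculations used Python 3.11.15, pandas 2.3.3 and numpy 2.4.6, and figures matplotlib 3.10.9.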

Additional observations from a re-analysis of the deposited data

Results flagged for a closer look

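Among 62 groups of 4 libraries examined (28 members and 3 sums in either tissue), 7 had 1 library far from the other 3 by Dixon's ratio, the gap to the nearest library over the whole range, past Dixon's critical value. Chance flags about 1 in 20 groups, or 3.1 of 62, but the groups share the same 8 libraries and are not independent. In hypothalamus, 5 of the 7 came from replicate 1 and all 5 are transport genes. That library lay outside the range of the other 3 by more than that range for 49.3% of all genes compared. Bbs10 was highest in hypothalamus replicate 1 at 4.98 FPKM, against 3.97 to 4.03 in the other 3 (ratio 0.940), and Bbs7 highest at 9.96 against 6.95 to 7.44 (0.840). Ift43 was highest there at 11.6 against 9.17 to 9.40 (0.902) and Ift80 at 10.6 against 6.06 to 6.79 (0.841). Ift27 was lowest there at 16.8 FPKM, against 31.9 to 33.7 (0.892). Dnah1 was highest in hypothalamus replicate 2, at 3.61 FPKM against 2.87 to 2.95 (0.898). Bbs2 was lowest in hippocampus replicate 1, at 11.2 FPKM against 23.1 to 24.3 (0.908).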

How the results depend on the processing

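The direction of Foxj1 and of the 6 structural genes called higher held under all 21 alternatives; Foxj1, Rsph1 and Rsph9 were called in all 21, and motile genes called higher numbered 4 with quantile normalisation and 8 without hippocampus replicates 3 and 4. Transport calls were few and moved: 2 were higher with FPKM as deposited, a limit of 0.5, without replicate 1 of both tissues, without hippocampus replicates 3 and 4, and without these and hypothalamus replicate 1; 1 was higher with upper-quartile scaling, quantile normalisation or the replicate block; none was lower with FPKM as deposited, and 1 was lower with upper-quartile scaling, with 1 locus in each table and without hippocampus replicates 3 and 4. Leaving out 1 library gave 0 to 2 higher and 1 to 3 lower. The transport median was 0.055 with FPKM as deposited, 0.067 without hippocampus replicates 3 and 4 and 0.0064 without these and hypothalamus replicate 1. A pseudocount of 0.1 gave a motile median of 1.45; filtering at 5 FPKM gave 0.59 and left 5 motile genes, 2 of them higher. The log2 ratio of summed motile FPKM, 0.20, was 0.43 with FPKM as deposited and 0.35 without hippocampus replicates 3 and 4; that of transport, 0.22, was 0.45 with FPKM as deposited and 0.45 without hippocampus replicates 3 and 4 and hypothalamus replicate 1. With a limit of 0.5, 2409 of all genes were higher and 2549 lower. Filters and left-out libraries change the genes or samples compared; otherwise the cause of these moves was not tested. Same-numbered libraries did not deviate together (correlation across genes -0.079 to 0.14), so the numbers were not taken as pairs; with the replicate block, 6 motile genes were higher, all of them structural. Unknown depth limits the lowest genes, Spag16 and Spag6l.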
